A study of Mus musculus with 22 samples.

Results

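Chemokines and their receptors were followed in the mouse hypothalamus as 58 probe sets of 54 genes, out of 23492 probe sets on the array. The members are all probe sets that the platform annotation gives exactly 1 gene symbol of the Ccl, Cxcl, Ccr, Cxcr or Ackr series, or Cx3cl1 or Xcl1, whatever their level. They comprise 23 probe sets of 19 CC ligands, 13 CXC ligands, the CX3C ligand Cx3cl1 with the XC ligand Xcl1, 10 CC receptors, 6 CXC receptors and 4 atypical receptors. Ccl19 alone had more than 1 probe set. Its 5 probe sets gave nearly the same values (1 pair was identical), so they may read the same transcripts or near-identical gene copies and are not independent. Another 7 probe sets carry several symbols of the Ccl21 and Ccl27 copies and fall outside the rule.

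The 22 arrays held hypothalamic RNA of lean male C57BL/6J mice, wild type as far as the labels say, aged 8 weeks and kept on normal chow during 2 weeks. Intraperitoneal injections held celastrol, a plant triterpenoid, in dimethyl sulfoxide (DMSO), or DMSO alone, so that all groups had the solvent. There were 4 DMSO arrays and 4 celastrol arrays at 6 h, 4 DMSO and 3 celastrol arrays at 1 day, and 4 DMSO and 3 celastrol arrays at 4 days. The labels give DMSO at 25 µl per day, celastrol at 250 µg per kg beside the 6 h group and a volume of 100 µl beside the later groups, whose dose was not given in the sources used here. Arrays are labelled as biological replicates, with no word on whether animals were pooled.

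Chemokines are small secreted proteins that guide leukocytes along gradients by way of G protein-coupled receptors. Some are made all the time and place cells within a tissue, while others are switched on by cytokines through NF-kB or interferon signalling and draw neutrophils, monocytes or lymphocytes to a site of inflammation. In the healthy brain neurons tether Cx3cl1 to their surface and microglia carry its receptor, while atypical receptors bind chemokines without G protein signalling and clear or store them.

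Array medians lay between 8.58 and 8.66 on the log2 scale, and no pair of arrays held the same values. All 9 measured hypothalamic neuron markers of 10 listed (among them Hcrt, Pmch and Oxt) lay above the 95th percentile of olfactory receptor genes, which served as a silent reference. DMSO 1 day replicate 1 and celastrol 1 day replicate 2 correlated least with the other arrays of their groups. Pituitary genes differed widely between arrays of 1 group (mean of the 6 markers from 7.83 to 10.2 among the DMSO arrays of 6 h).

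The silent reference, a guide to dim levels, was made of 1183 probe sets of olfactory and vomeronasal receptors, which the brain hardly expresses. Their median was 5.62 and their 95th percentile 7.15 on the log2 scale. Over all 22 arrays, 25 member probe sets of 21 genes had a mean above that percentile and 33 lay at or below it, whereas 74.9% of all 20228 probe sets with 1 symbol lay above. Only Cx3cl1 (mean 11.2), Cxcl14 (10.2) and Ackr1 (10.1) exceeded their array's median in all 22 arrays, and 51 members did so in none. Probe sets differ in how strongly they bind, so these intensities describe each probe set against the reference and do not rank the genes by amount of RNA.

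**Figure D1:**
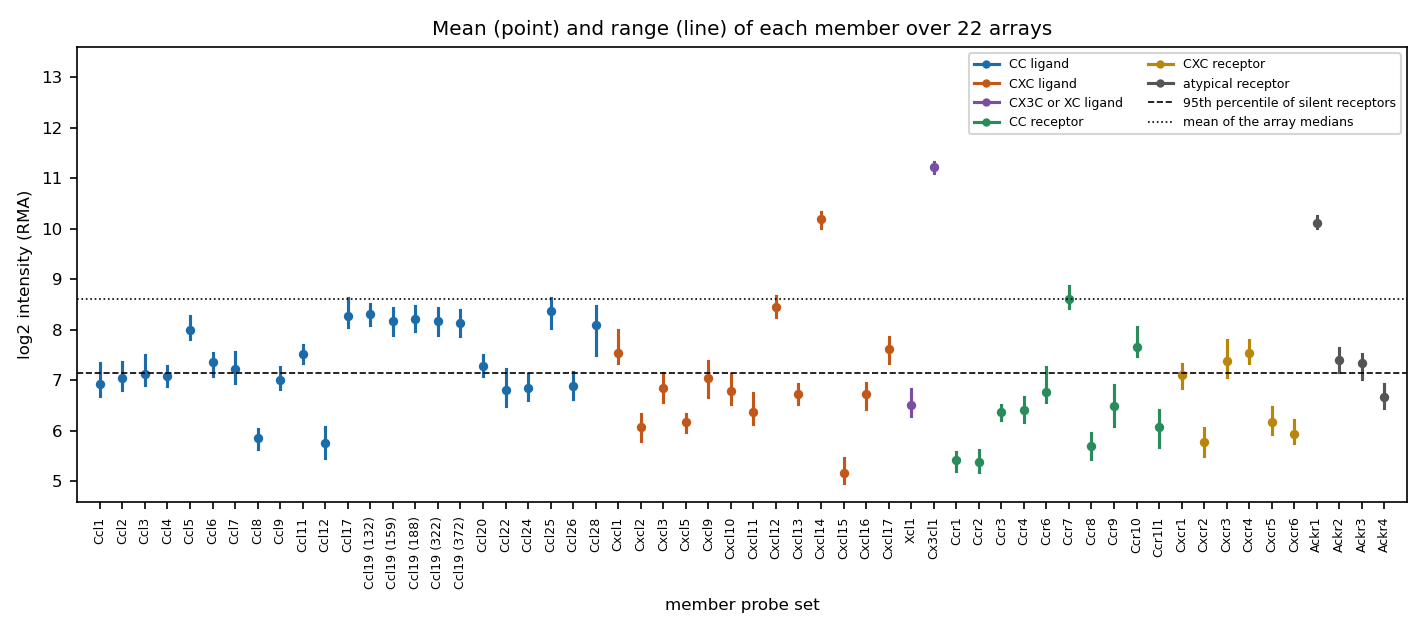
Each of the 58 member probe sets is placed along the horizontal axis by role, with its mean log2 intensity over 22 arrays as a point and the range from the lowest to the highest array as a line; the dashed line is the 95th percentile of 1183 olfactory and vomeronasal receptor probe sets (7.15) and the dotted line the mean of the array medians (8.61). Cx3cl1, Cxcl14 and Ackr1 stand above the dotted line on every array, and 33 members have their mean at or below the dashed line.

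With limma fitted over all 20228 probe sets with 1 symbol, 0 of the 58 members differed between celastrol and DMSO at an adjusted p under 0.05 at 6 h, 1 day or 4 days, or on the equally weighted average of the 3 times. Over all probe sets 0% were called at 6 h, 0.00494% at 1 day, 0.00989% at 4 days and 0.0346% on the average. The smallest adjusted p of any member (limma) was 0.998 at 6 h, 0.787 at 1 day, 0.9999 at 4 days and 0.952 on the average. At an unadjusted p under 0.05 there was 1 member at 6 h (1.72%) against 3.93% of all probe sets and 4 at 1 day (6.90%) against 5.57%. There were 5 at 4 days (8.62%) against 4.05%, and 2 on the average (3.45%) against 3.55%. With so few members, shares of this size lie near the background. With bulk RNA, fewer cells of a type and less RNA per cell cannot be told apart, for these and all later values.

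The intervals bound how large a difference could have been. The 95% interval of a member's log2 change reached a median of 0.19 to each side at 6 h, 0.20 at 1 day and at 4 days, and 0.12 on the average. All 58 intervals lay within 1.5-fold in either direction at 6 h, at 4 days and on the average, and 57 of 58 did so at 1 day, the exception being Ccl28. Dim probe sets compress differences, so for the 33 members at or below the reference percentile the interval bounds the array reading and not the RNA. In the same fit Ptgs2, the inducible cyclooxygenase, rose on the average by a log2 change of 0.76 (adjusted p = 0.0014, limma), and Osmr, the oncostatin M receptor subunit, by 0.77 (adjusted p = 0.0019, limma). Ch25h, an enzyme of oxysterol synthesis, rose by 0.68 on the average (adjusted p = 3.87e-05, limma). At single times Ch25h passed at 1 day and 4 days (adjusted p = 0.0129 and 0.00186, limma). Neither Ptgs2 nor Osmr passed at any single time (lowest adjusted p 0.0728 at 4 days and 0.167 at 1 day, limma).

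**Figure D2:**
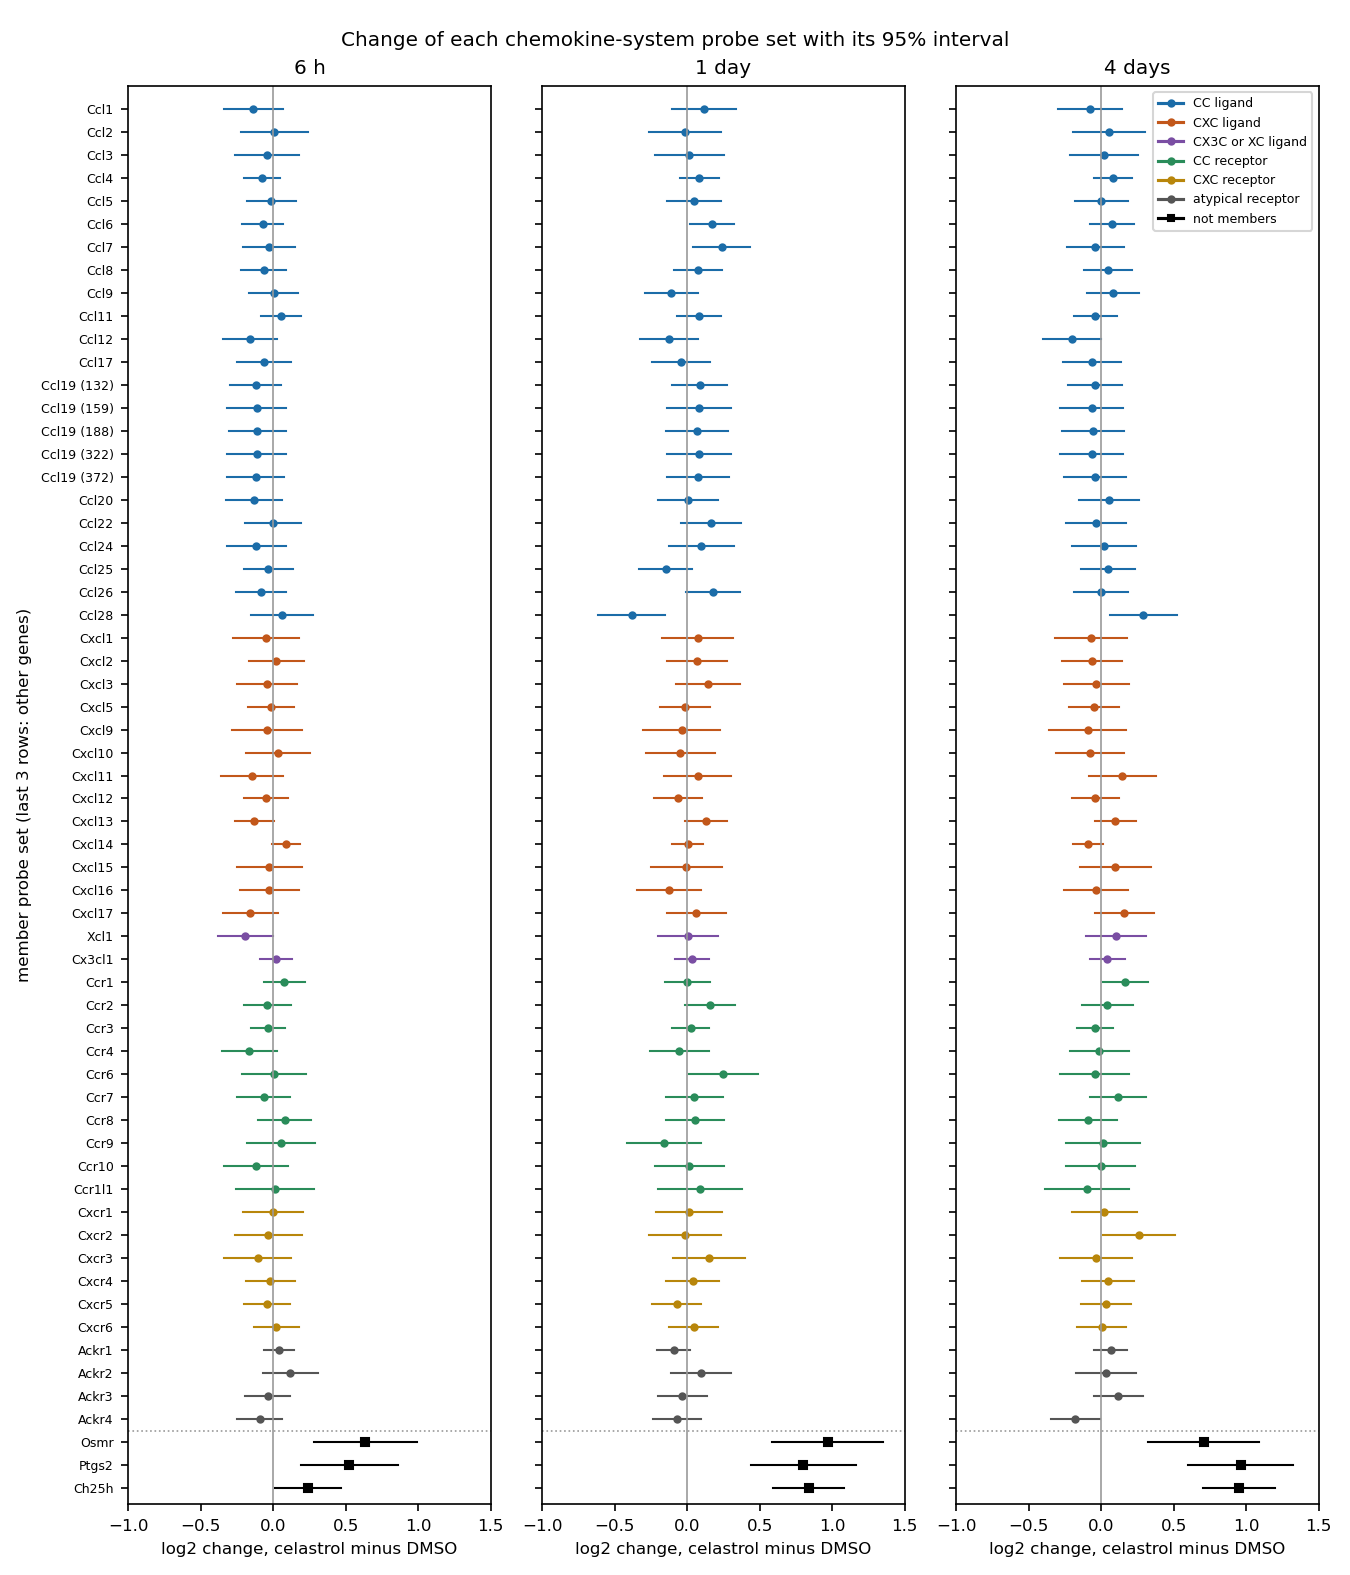
Points are log2 changes (celastrol minus DMSO) at 6 h, 1 day and 4 days with 95% intervals as lines for the 58 member probe sets, coloured by role, and as black squares for Osmr, Ptgs2 and Ch25h, which are not members. The members lie between -0.38 and 0.29, and each interval stays within 1.5-fold except that of Ccl28 at 1 day; Osmr and Ptgs2 lie at 0.52 or more at each time.

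Among the inflammatory ligands, those drawing neutrophils through Cxcr2 are known targets of NF-kB. In RefSeq sequence of GRCm38.p6, 40 of the 54 member genes matched and gave 42 promoters. The 250 bases before the start were searched on both strands for the NF-kB-type letters GGGNNNTTCC, which 9 member promoters (21.4%) and 4.65% of all 32851 promoters held. The interferon-response-type letters GAAANNGAAA, which do not overlap the former in these windows, stood in 3 member promoters (7.14%), those of Ccl19, Cxcl10 and Cxcl14, and in 2.98% of all. Both searches were chosen with the values of these genes known, and a match is a description of the letters, not a site in use. The stretches around the matches are shown for 5 ligands that inflammation induces elsewhere, because none of them passed the test here. Capitals mark the matches, overlapping ones joined, with 20 bases to each side.
Cxcl1 (chr5:90891136-90891204, plus strand): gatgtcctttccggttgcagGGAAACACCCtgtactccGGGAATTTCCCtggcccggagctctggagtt
Cxcl2 (chr5:90903782-90903850, plus strand): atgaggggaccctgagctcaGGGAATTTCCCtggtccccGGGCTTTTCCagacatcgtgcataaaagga
Cxcl3 (chr5:90786008-90786080, plus strand): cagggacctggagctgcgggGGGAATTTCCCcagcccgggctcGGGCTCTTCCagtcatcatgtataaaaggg
Cxcl10 (chr5:92348964-92349122, minus strand): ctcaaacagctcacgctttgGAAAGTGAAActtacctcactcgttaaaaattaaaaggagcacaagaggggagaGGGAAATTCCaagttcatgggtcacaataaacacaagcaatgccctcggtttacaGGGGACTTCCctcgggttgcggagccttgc
Ccl20 (chr1:83116666-83116715, plus strand): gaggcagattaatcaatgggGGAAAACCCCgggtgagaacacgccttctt
Cxcl1, Cxcl2 and Cxcl3 share the same matched stretch, in which matches on both strands overlap, and Cxcl10 holds an interferon-type match followed by a pair of NF-kB-type ones.

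None of these 5 ligands passed the test at any time. Cxcl1, a neutrophil attractant, read 7.85, 7.47, 7.42 and 7.58 in the DMSO arrays of 6 h and 7.71, 7.47, 7.41 and 7.53 in the celastrol arrays. At 1 day it read 7.78, 7.57, 7.47 and 7.48 with DMSO and 7.40, 7.99 and 7.54 with celastrol, and at 4 days 7.54, 7.45, 7.38 and 7.56 against 7.34, 7.35 and 7.55. The groups overlapped at each time, and the 7.99 belongs to celastrol 1 day replicate 2, 1 of the least typical arrays. The log2 change of Cxcl1 was -0.05 (95% interval -0.28 to 0.18) at 6 h, 0.07 (-0.18 to 0.32) at 1 day and -0.07 (-0.32 to 0.18) at 4 days. Cxcl2 gave 0.02, 0.07 and -0.06 in the same order, and Cxcl3 gave -0.04, 0.14 and -0.03. Cxcl5, another ligand of Cxcr2, gave -0.01, -0.02 and -0.05. The means of Cxcl2 (6.08), Cxcl3 (6.85) and Cxcl5 (6.17) lay below the reference percentile.

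The interferon-induced ligands of Cxcr3, which draw activated T cells, gave values as small. Cxcl10 read 6.85, 6.78, 6.74 and 6.74 with DMSO at 6 h and 6.75, 7.07, 6.76 and 6.66 with celastrol, so that the highest value stood among the celastrol arrays and the lowest too. Its log2 change was 0.03 (95% interval -0.19 to 0.25) at 6 h, -0.05 (-0.28 to 0.19) at 1 day and -0.08 (-0.31 to 0.16) at 4 days. Cxcl9 gave -0.04, -0.04 and -0.09, and Cxcl11 -0.15, 0.07 and 0.15. The means of Cxcl9, Cxcl10 and Cxcl11 all lay below the reference percentile.

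The bright ligands had narrow intervals. Cx3cl1, the neuronal ligand of microglial Cx3cr1, read 11.23, 11.15, 11.18 and 11.29 with DMSO and 11.24, 11.24, 11.14 and 11.29 with celastrol at 6 h. At 1 day the values were 11.11, 11.18, 11.25 and 11.30 against 11.22, 11.32 and 11.19, and at 4 days 11.22, 11.12, 11.18 and 11.26 against 11.30, 11.14 and 11.26. The groups lay over each other at each time, with log2 changes of 0.02, 0.03 and 0.04 and intervals that reached no further than 0.16. Its receptor Cx3cr1, which the symbol rule does not take in, gave -0.02 at 6 h, -0.19 at 1 day and 0.08 at 4 days. At 1 day its interval (-0.31 to -0.07) left out 0, but it did not pass (adjusted p = 0.833, limma). The celastrol arrays of 1 day read 9.52 to 9.56 and the DMSO arrays 9.71 to 9.78, without overlap.

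Cxcl14, a ligand made without inflammation in several tissues, read 10.14, 10.23, 10.20 and 10.20 with DMSO and 10.34, 10.31, 10.27 and 10.20 with celastrol at 6 h. At 4 days the order was the other way, with 10.19, 10.06, 10.24 and 10.13 in DMSO arrays and 10.01, 10.05 and 10.13 in celastrol arrays. Its log2 change was 0.09 (95% interval -0.01 to 0.19) at 6 h, 0.00 (-0.10 to 0.11) at 1 day and -0.09 (-0.20 to 0.02) at 4 days, all intervals including 0. Cxcl12, which holds cells in place through Cxcr4, gave -0.05, -0.06 and -0.04. Cxcr4 itself gave -0.02, 0.04 and 0.05, and Ackr3, the atypical receptor that removes Cxcl12, gave -0.04, -0.03 and 0.12.

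**Figure D3:**
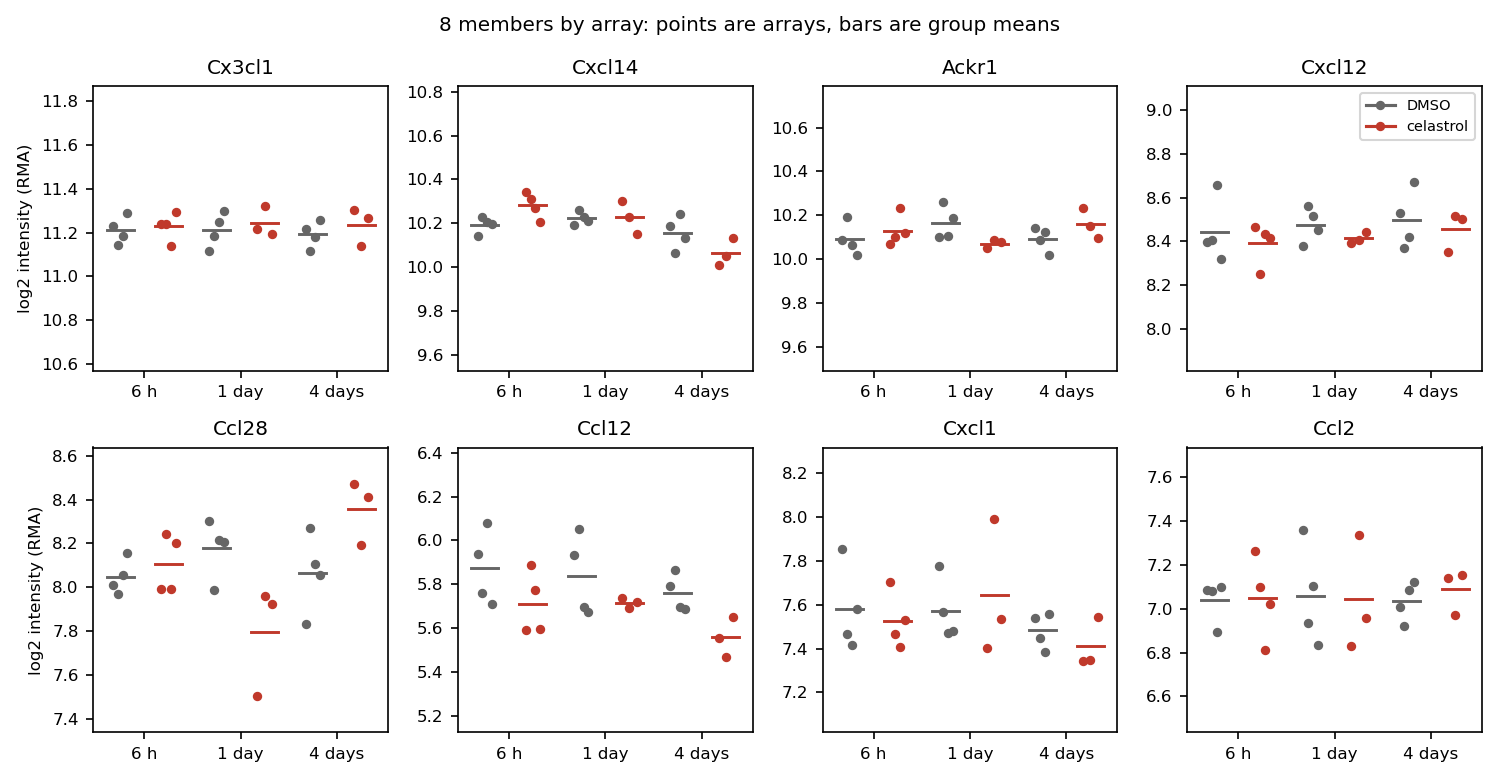
Log2 intensity of 8 members in each array (points) with the group mean (bars), DMSO in grey and celastrol in red at 6 h, 1 day and 4 days; all panels span the same height of 1.3 log2 units. The groups of Cx3cl1, Cxcl14 and Cxcl12 overlap at each time, Ccl28 lies lower in the celastrol arrays of 1 day (7.51 to 7.96 against 7.99 to 8.30), and Ccl12 lies lower in those of 4 days (5.47 to 5.65 against 5.69 to 5.86).

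Ccl28, an epithelial chemokine that acts on Ccr10 and Ccr3, had the widest differences of the family, in opposite directions at 1 day and 4 days. At 6 h it read 8.01, 7.97, 8.06 and 8.15 with DMSO and 7.99, 8.24, 7.99 and 8.20 with celastrol. At 1 day the DMSO arrays read 8.30, 7.99, 8.22 and 8.21 and the celastrol arrays 7.51, 7.96 and 7.92, and at 4 days 7.83, 8.27, 8.11 and 8.06 stood against 8.47, 8.19 and 8.41. All celastrol arrays lay below all DMSO arrays at 1 day, while at 4 days they lay above 3 of the 4 DMSO arrays and overlapped the highest. The log2 change was 0.06 (95% interval -0.15 to 0.27) at 6 h, -0.38 (-0.61 to -0.15) at 1 day and 0.29 (0.06 to 0.52) at 4 days. Without celastrol 1 day replicate 1, the array at 7.51, the change of Ccl28 at 1 day was -0.24. Neither passed over all probe sets (adjusted p = 0.787 at 1 day and 0.9999 at 4 days, limma), nor did the difference between times (adjusted p = 0.821, limma). Its exact permutation p was 0.0571 at 1 day and 0.0857 at 4 days, two-sided and unadjusted, where 0.0286 is the smallest possible. Its receptors gave at most 0.12 in size, Ccr10 with -0.12, 0.01 and -0.00 and Ccr3 with -0.03, 0.02 and -0.04.

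Ccl12, a mouse monocyte attractant that signals through Ccr2, was the member with the lowest adjusted p on the average. At 4 days it read 5.79, 5.86, 5.70 and 5.69 with DMSO and 5.56, 5.47 and 5.65 with celastrol, without overlap. At 6 h it read 5.94, 5.76, 6.08 and 5.71 against 5.59, 5.89, 5.77 and 5.60, and at 1 day 5.93, 6.05, 5.70 and 5.67 against 5.74, 5.69 and 5.72. The groups overlapped at those times, and 1 of the 10 celastrol arrays exceeded its time's DMSO mean. The average log2 change was -0.16 (95% interval -0.27 to -0.05, adjusted p = 0.952, limma), and the change of Ccl12 at 6 h was -0.16, or -0.09 without DMSO 6 h replicate 3. The average had an exact permutation p of 0.00862, which is unadjusted and belongs to the most extreme of 58 members. All its values lie in the range of the silent reference, so they may not reflect its RNA.

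Ccl2 and Ccl7 are other ligands of Ccr2. Ccl2 read 7.09, 7.08, 6.90 and 7.10 with DMSO and 7.27, 7.10, 6.81 and 7.02 with celastrol at 6 h, so the celastrol arrays held both the highest and the lowest value. Its log2 change was 0.01 (95% interval -0.22 to 0.24), -0.02 (-0.27 to 0.23) and 0.05 (-0.20 to 0.30) at 6 h, 1 day and 4 days. The mean of Ccl2 (7.05) lay below the reference percentile. Ccl7 read 7.24, 7.12, 7.22 and 6.95 with DMSO at 1 day and 7.24, 7.56 and 7.31 with celastrol, the lowest celastrol array level with the highest DMSO array, for a log2 change of 0.24 (0.04 to 0.43, adjusted p = 0.861, limma). Without celastrol 1 day replicate 2, the change of Ccl7 at 1 day was 0.14. Ccl7 gave -0.03 at 6 h and -0.04 at 4 days, and Ccr2, the monocyte receptor, gave -0.04, 0.16 and 0.04 at a mean level of 5.38, below the median of the silent reference.

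Of the other CC ligands, Ccl6, a rodent ligand of Ccr1, read 7.26, 7.33, 7.10 and 7.23 with DMSO at 1 day and 7.34, 7.49 and 7.38 with celastrol. The groups did not overlap, but the gap from 7.33 to 7.34 was narrow (log2 change 0.17, 95% interval 0.02 to 0.33, adjusted p = 0.861, limma). The DMSO mean of Ccl6 was 7.23 at 1 day, beside 7.44 at 6 h and 7.35 at 4 days. Its celastrol mean at 1 day was 7.40, between those of DMSO at 4 days and 6 h. Ccl3, Ccl4 and Ccl5, which attract monocytes and T cells, gave -0.04, -0.08 and -0.01 at 6 h. They gave 0.01, 0.08 and 0.05 at 1 day and 0.02, 0.08 and 0.00 at 4 days. The means of Ccl3 (7.14) and Ccl4 (7.08) lay below the reference percentile and that of Ccl5 (8.00) above it. Ccl20, the ligand of Ccr6, gave -0.13, 0.01 and 0.05, and the 5 probe sets of Ccl19, which guides dendritic and T cells through Ccr7, gave -0.12 to -0.11 at 6 h, 0.07 to 0.09 at 1 day and -0.07 to -0.04 at 4 days. Ccl26, an eotaxin-type ligand of Ccr3, gave -0.09, 0.18 (95% interval -0.01 to 0.37, adjusted p = 0.861, limma) and -0.00, and its change at 1 day was 0.10 without celastrol 1 day replicate 2. Ccl25, the ligand of Ccr9, gave -0.03, -0.15 and 0.05 (-0.05 at 1 day without that array), and Cxcl16, the ligand of Cxcr6, gave -0.03, -0.13 and -0.03. The means of Ccl26 (6.90) and Cxcl16 (6.73) lay below the reference percentile. In the RefSeq table of GRCm38.p6, 31 member genes sit in 8 runs of neighbours with at most 2 other protein-coding genes in between. In the run of Ccl2, Ccl7, Ccl11, Ccl12, Ccl8 and Ccl1, 2 of 6 were higher with celastrol at 6 h, 4 at 1 day and 2 at 4 days. In the run of Ccl5, Ccl9, Ccl6, Ccl3 and Ccl4 the counts were 1, 4 and 5 of 5, with log2 changes from 0.00 to 0.08 at 4 days.

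The receptors were mostly dim, with 4 of the 16 CC and CXC receptors above the reference percentile (Ccr7, Ccr10, Cxcr3 and Cxcr4). Cxcr2, the neutrophil receptor for Cxcl1 and its relatives, read 5.73, 5.50, 5.63 and 5.75 with DMSO at 4 days and 6.06, 5.79 and 5.88 with celastrol. The groups did not overlap (log2 change 0.26, 95% interval 0.01 to 0.51, adjusted p = 0.9999, limma; exact permutation p = 0.0286, the smallest possible, unadjusted), and the same probe set read 5.98 and 6.05 in DMSO arrays of 6 h. Ccr1, a receptor of monocytes and neutrophils, gave 0.08, 0.00 and 0.17 (at 6 h 0.02 without DMSO 6 h replicate 2 and 0.13 without replicate 4), with 9 of 10 celastrol arrays above the time-matched DMSO mean. At 4 days the groups of Ccr1 overlapped, with DMSO arrays up to 5.58 and celastrol arrays from 5.43. That change had an adjusted p of 0.9999 (limma) and an unadjusted exact permutation p of 0.143. The mean of Ccr1 (5.43) lay below the median of the silent reference. Ccr6, found on B cells and some T cells, gave 0.01, 0.25 and -0.04, and its celastrol arrays of 1 day ranged from 6.66 in replicate 1 to 7.26 in replicate 2. The change of Ccr6 at 1 day was 0.40 without replicate 1 and 0.11 without replicate 2. Ccr4, the T cell receptor of Ccl17 and Ccl22, gave -0.16 (95% interval -0.35 to 0.03), -0.05 and -0.01, with -0.10 at 6 h without celastrol 6 h replicate 3. Ccr8, another T cell receptor, gave 0.08, 0.06 and -0.09. Ccr9, the receptor of Ccl25, gave 0.05, -0.16 (-0.42 to 0.09) and 0.01, and its change at 1 day ranged from -0.26 without celastrol replicate 2 to -0.06 without DMSO replicate 3. The median log2 change of the 10 CC receptors was -0.01 at 6 h, 0.04 at 1 day and -0.01 at 4 days, and that of the 6 CXC receptors -0.03, 0.03 and 0.03.

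Among the atypical receptors, Ackr1, which red cells and venules carry and which binds many inflammatory chemokines, was bright. At 1 day it read 10.10, 10.26, 10.11 and 10.19 with DMSO and 10.05, 10.09 and 10.08 with celastrol, so that the nearest arrays stood at 10.09 and 10.10. At 4 days the order turned, with 10.14, 10.09, 10.12 and 10.02 against 10.23, 10.15 and 10.10, and the groups overlapped. The log2 change was 0.04, -0.09 and 0.07, each with an interval that includes 0. Ackr2, which removes inflammatory CC chemokines, gave 0.12 (0.08 without DMSO 6 h replicate 2), 0.10 and 0.03. Ackr4, which removes Ccl19 and Ccl25, gave -0.09, -0.07 and -0.18 (average -0.11, 95% interval -0.21 to -0.02, adjusted p = 0.9997, limma), with 1 of 10 celastrol arrays above the DMSO mean. The mean of Ackr4 (6.67) lay below the reference percentile.

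Counts of members without overlap between the arrays of a time were near the shares over all probe sets. At 6 h there were 0 higher and 0 lower with celastrol, where 1.48% and 1.17% of all probe sets stood apart. At 1 day Ccl6 was the 1 higher (background 2.12%), and Ackr1 and Ccl28 were the 2 lower (background 3.19%). At 4 days Cxcr2, Xcl1 and Cxcl17 were the 3 higher (background 4.06%), and Ccl12 was the 1 lower (background 2.02%). Xcl1, the lymphocyte-derived ligand of Xcr1, read 6.53, 6.49, 6.42 and 6.44 with DMSO and 6.56, 6.56 and 6.60 with celastrol at 4 days, whereas its log2 change at 6 h was -0.19 (95% interval -0.38 to -0.00), or -0.13 without DMSO 6 h replicate 1. Cxcl17, a mucosal chemokine, read 7.51, 7.57, 7.60 and 7.62 against 7.75, 7.70 and 7.76. The DMSO arrays of 6 h spanned these celastrol values, from 6.47 to 6.84 for Xcl1 and from 7.49 to 7.86 for Cxcl17. The mean of Xcl1 (6.52) lay below the reference percentile.

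As a whole the family leaned to 1 side at 6 h and to the other at 1 day, and so did genes that the brain hardly expresses. At 6 h 16 of 58 members (27.6%) were higher with celastrol, with a median log2 change of -0.04, beside 30.1% of the silent reference with a median of -0.04 and 52.1% of all probe sets. At 1 day 39 of 58 (67.2%) were higher with a median of 0.04, beside 60.0% of the reference with a median of 0.02 and 49.9% of all probe sets. At 4 days 29 of 58 were higher with a median of -0.00, beside 46.7% of the reference and 56.0% of all. Among the 25 members above the reference percentile, 6 were higher at 6 h and 19 at 1 day. These 25, like the 58, include the 5 Ccl19 probe sets, which are not independent. All of them were lower at 6 h and higher at 1 day, so 1 gene adds to both leans. Celastrol 1 day replicate 2 had the highest median of the members (7.30) and of the reference (5.75) of all arrays. The part of this shared movement in single members was not tested.

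**Figure D4:**
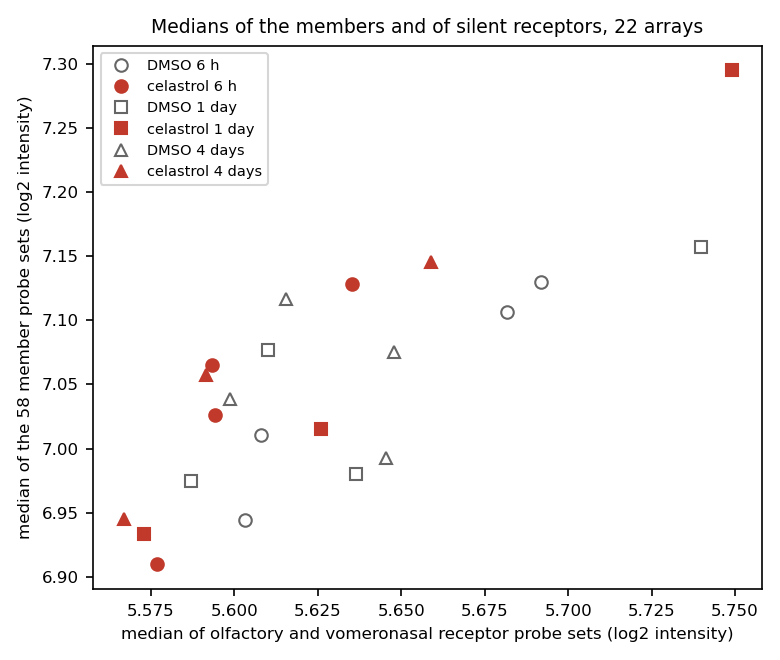
For each of the 22 arrays the median log2 intensity of the 58 members (vertical axis) is plotted against that of 1183 olfactory and vomeronasal receptor probe sets (horizontal axis), with open grey symbols for DMSO and filled red symbols for celastrol, and circles, squares and triangles for 6 h, 1 day and 4 days. The array at the upper right is celastrol 1 day replicate 2 (5.75 and 7.30); celastrol and DMSO arrays are otherwise intermingled.

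The F-test over the 3 times (limma) called 0 members for a celastrol effect that differs between times and 0% of all probe sets. At an unadjusted p under 0.05 there were 2 members, Ccl28 and Cxcl13, against 5.03% of all. Cxcl13, the B cell attractant, gave -0.13 at 6 h (-0.08 without DMSO 6 h replicate 2), 0.13 at 1 day and 0.10 at 4 days (adjusted p = 0.926, limma). In DMSO arrays alone the F-test called 0 members and 0% of all probe sets, and 3 members had an unadjusted p under 0.05 against 11.8% of all. They were Ccl6 (1 day minus 6 h -0.22, 4 days minus 6 h -0.09, adjusted p = 0.335, limma), Cxcl13 (-0.15 and 0.04) and Cxcr5, its receptor (-0.09 and -0.22).

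The genes around the family were read from lists of their own. Of 22 listed inducers and endothelial partners 18 were measured, and limma called 0 in any of the celastrol comparisons. At an unadjusted p under 0.05, 2 of 18 (11.1%) were higher at each time and 0 lower. The shares higher over all probe sets were 2.26% at 6 h, 2.35% at 1 day and 2.75% at 4 days. On the average 4 of 18 (22.2%) were higher, Tnfrsf1a, Nfkbia, Icam1 and Vcam1, with log2 changes from 0.14 to 0.20, beside 2.29% of all probe sets. Nfkbia, an NF-kB inhibitor, gave -0.15, 0.36 and 0.40 (average adjusted p = 0.46, limma). Vcam1, an endothelial adhesion molecule, gave 0.10, 0.11 and 0.20, and the cytokines Tnf and Il1b stayed between -0.07 and 0.06. Of 36 listed signalling genes downstream of the receptors 29 were measured and limma called 0, with 0 at an unadjusted p under 0.05 at 6 h and 1 day, and 3 at 4 days (10.3%), all higher, beside 2.75% of all probe sets. Itgb2, the shared chain of leukocyte integrins, gave 0.02, 0.01 and 0.29.

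Markers of the cells that carry these receptors were read in the same way, and limma called 0 of them. Of 10 microglial markers 9 were measured, and 8 of 9 were higher at 4 days with a median of 0.13, among them Itgam (0.32, adjusted p = 0.0512, limma) and Csf1r (0.19, adjusted p = 0.57, limma). At an unadjusted p under 0.05, 3 of 9 (33.3%) were higher at 4 days, beside 2.75% of all probe sets. Their mean lay between 8.69 and 8.78 in the DMSO arrays of 4 days and between 8.85 and 8.87 in the celastrol arrays. At 6 h and 1 day 4 and 2 of the 9 were higher, with medians of -0.01 and -0.03. Their part in the 4 day values of Ccr1 and the other members was not tested. At an unadjusted p under 0.05, 3 of 7 endothelial markers were lower at 1 day (background 3.21%) and 2 higher at 4 days (background 2.75%). In the same way 2 of 3 B cell markers were higher at 1 day (background 2.35%) and 2 of 6 pituitary markers lower at 6 h (background 1.67%). Those B cell markers were Cd79a and Ms4a1, whose means of 6.11 and 5.50 lay below the reference percentile. Cd79b, the B cell marker above it, gave 0.02 at 1 day. Every other marker list had at most 1 in each direction at a time. Markers of leukocytes other than microglia were mostly dim. Above the reference percentile lay 2 of 7 measured markers of T and NK cells, 1 of 3 of B cells and 1 of 7 of neutrophils, and of the resident border macrophages 2 of 6. The mean of the 7 neutrophil markers lay between 6.42 and 6.51 in DMSO arrays and between 6.45 and 6.59 in celastrol arrays at 4 days. At 1 day, when all 7 T and NK markers were higher with a median of 0.11, the array with the highest mean of them (7.04) was a celastrol array, and its part in the member values was not tested. All 7 measured endothelial markers lay above the percentile, and 1 of 7 was higher at 1 day (median -0.17) and 5 at 4 days (0.04).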

How the data were processed

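The authors deposited 1 table of log2 intensities for 22 arrays, made with RMA per the submitters' processing notes. RMA corrects background, normalizes between arrays and summarizes probes. Its version was not given in the sources used here. RNA was labelled with biotin for Affymetrix whole-transcript arrays, per the labels' protocols. Gene symbols came from the platform annotation: 20228 probe sets had 1 symbol, 1399 several and 1865 none.

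The 20228 probe sets were fitted, dim ones included, by lmFit and eBayes of limma 3.58.1 (R 4.3.3) with a mean for each of 6 groups. Residual degrees of freedom were 16 and prior ones 4.66, and the residual SD had a median of 0.0973. Calls needed p under 0.05 after Benjamini-Hochberg adjustment over the 20228, two-sided. Intervals are at 95%. Exact permutation tests exchanged labels within a time. The limma p-values set a difference of group means against the spread between these arrays within groups. The permutation p-values are the share of label exchanges that gave a difference at least as large. Quantile normalization within RMA forces the arrays to like distributions, and dim probe sets understate changes; precision rests on the number of arrays, which have no depth.

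The members, the lists, the alternatives and the rule for named genes were chosen with earlier results of these data known. Named were, for each time and the average, the 4 higher and 4 lower members with the smallest p, the 3 smallest for each F-test, and 22 of 24 familiar members that were present; other members are named to show their roles. On simulated data with 200 of 20228 probe sets changed, a log2 change of 0.25, 0.5 or 1 was recovered in 38.3%, 91.8% and 99.7% at 6 h, 27.8%, 87.8% and 99.7% at 1 day, and 24.7%, 90.3% and 99.5% at 4 days. The simulated noise was independent between probe sets, and 200 changed probe sets ease the adjustment for multiple tests. In the real fit Itgam at 4 days (log2 change 0.32, standard error 0.053) missed the limit (adjusted p = 0.0512, limma). The median standard error of a member at 4 days was 0.098, so these shares may be too high for the members. The alternatives covered filters, 1 probe set per gene, all probe sets, normalization, array weights, limma-trend, only the groups compared, robust eBayes, a replicate block, and leaving out each array. Promoters came from RefSeq tables. Python 3.11.15 with matplotlib 3.10.9 drew the figures.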

Additional observations from a re-analysis of the deposited data

Results flagged for a closer look

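In groups of 4 arrays, 1 array stood far from the other 3 in 10 of 232 groups tested, where chance gives about 11.6. Ccr1 read 5.51 in DMSO 1 day replicate 2 (others 5.43 to 5.44), Ccr8 5.51 in DMSO 1 day replicate 4 (others 5.71 to 5.75), and Cxcl2 6.33 in DMSO 1 day replicate 1 (others 6.00 to 6.04). Cxcl9 read 7.14 in DMSO 1 day replicate 3 (the others at 7.02 or below) and Ccl2 6.90 in DMSO 6 h replicate 3 (others 7.08 to 7.10). Ccl25 read 8.23 in DMSO 4 days replicate 1 (others 8.43 to 8.45), and 1 probe set of Ccl19 8.47 in DMSO 4 days replicate 4 (others 8.18 to 8.23). Cxcr3 read 7.58 in DMSO 6 h replicate 4 (others 7.39 to 7.40) and 7.06 in celastrol 6 h replicate 3 (others 7.40 to 7.44), and Cxcl15 read 5.29 in celastrol 6 h replicate 2 (others 5.10 to 5.12).

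For 9 members every celastrol array lay on 1 side of the DMSO mean at 1 time and on the other side at another time. This was counted for the members only. With no share over all probe sets beside it, the count does not set the family apart. The difference between the log2 changes of 4 days and 1 day was 0.67 for Ccl28 (adjusted p of limma's F-test over the 3 times 0.821), 0.16 for Ackr1 (0.926) and 0.20 for Ccl25 (0.941). Between 4 days and 6 h it was -0.18 for Cxcl14, 0.30 for Xcl1, 0.32 for Cxcl17, 0.29 for Cxcl11 and 0.23 for Cxcl13, and between 1 day and 6 h 0.26 for Cxcl13 (each adjusted p = 0.926, limma). For Ccl20 it was 0.19 between 4 days and 6 h (adjusted p = 0.947, limma). None passed the F-test.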

How the results depend on the processing

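Of 35 alternatives, all but array weights called 0 members in each test that was run. The fit of only the groups compared had no average and no test of a celastrol effect that differs between times. With array weights left aside, the lowest adjusted p of any member (limma) was 0.733 at 6 h, 0.0862 at 1 day, 0.620 at 4 days and 0.533 on the average. The exception was array weights, with 9 members called at 1 day and 0 in the other tests: Ccl20, Ccl7, Ccl11, Ccr6, Cxcl2, Ackr2, Cxcr6 and Ccr2 higher and Ccl28 lower, beside 1570 of all 20228 probe sets (7.76%). There the weight of celastrol 1 day replicate 3 was 23.5 against 0.305 to 1.73 for the other arrays, and the estimate had stopped before it converged. With weights estimated gene by gene, chosen after seeing the data, that array had 5.30 and 0 members were called. The same numbers recur in different groups, and deviations from the group means were correlated to look for pairing. Of 51 same-number pairs 11 correlated over 0.1, and 3 of 22 arrays correlated best with their own number. The median correlation was -0.003 for same-number pairs and -0.011 for the others. The highest same-number value was 0.39, for replicate 3 of DMSO and celastrol at 6 h. Groups of 3 or 4 arrays are too small for this check to exclude pairing. With the replicate block 0 members were called in each test. Leaving out each array in turn gave 0 to 0 members called. Members without overlap at 1 day numbered 2 higher and 1 lower after quantile normalization again (2.75% and 2.56% of all probe sets) and after median centring (2.78% and 2.28%). They numbered 5 higher and 5 lower (8.32% and 9.66% of all) without the 2 least typical arrays, chosen after seeing the data; fewer arrays overlap less. At 4 days 2 were lower after quantile normalization again (2.98% of all) and 4 after median centring (3.91%). Of 1054 signed values of named members under these alternatives 1 reversed, Ccr8 at 6 h, at -0.0012 without DMSO 6 h replicate 3. It ranged from there to 0.17 over the arrays left out, and the cause was not tested. Many of the 1054 values could not reverse. Leaving out an array of another time, the filters, limma-trend and robust eBayes do not alter a log2 change at 1 time. The members were also named for a small p in that direction, so this count does not measure robustness. The filters on level left 4 members to test.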
